A study of Mus musculus with 90 samples.

Results

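Egr1, Egr2, Egr3 and Egr4 are the 4 genes of the Egr family of zinc finger transcription factors. They were taken from a gene count table of mouse brain as the rows whose Ensembl identifiers carry these symbols, which gave 4 rows of the 37991 genes in the table (ENSMUSG00000038418, ENSMUSG00000037868, ENSMUSG00000033730 and ENSMUSG00000071341, in that order). RNA had been sequenced from frontal cortex, amygdala and hypothalamus of male C57BL/6J residents that had lived with a female and so held a territory. The female was taken away 3 h before the test, and the resident then met for 5 min either an unfamiliar BALB/cJ male held in a wire cage (intruder) or the same cage with a paper cup in it (control). Residents were killed 30, 60 or 120 min later, which gave 18 groups of region, time and condition. Groups were of 5 libraries, apart from 3 in the 30 min controls of hypothalamus and 6 in each condition of frontal cortex at 120 min. This made 44 control and 46 intruder libraries from 32 animals. Every group therefore contained handled animals that had lost their female cage mate the same day and had a cage placed with them, and no group of undisturbed animals was analysed here. The design text speaks of pooled RNA without giving a number, while the labels name 1 animal for each library.

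Egr proteins belong to the immediate-early genes, which neurons and other cells transcribe within minutes of a stimulus without first making new protein. The signal runs from synaptic activity or growth factors through the MAP kinase pathway and the kinases that act on CREB to the factors Elk1, Srf and Creb1 that sit on the promoters. Egr1 is a widely used marker of recent neuronal activity and is linked to synaptic plasticity, Egr2 is best known for its role in myelination and hindbrain patterning, Egr3 is needed for muscle spindles and is induced by activity in neurons, and Egr4 is known from male fertility. Egr proteins bind a GC-rich DNA element, and the corepressors Nab1 and Nab2 limit what Egr1, Egr2 and Egr3 do there.

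Promoter sequence was at hand for Egr2 and Egr4, 2 of the 4 genes, and is shown because the levels of these genes went together closely within groups, as given further on. RefSeq (build GRCm38.p6) gave 5 promoter windows for Egr2, from 5 annotated starts, and 1 for Egr4, each read over the 250 bases before the start. The capitals mark TGACG or its complement CGTCA, the core of the element that CREB binds, and the CArG box, the element that Srf binds. The stretches of Egr2 lie at chr10:67537749-67537778 and chr10:67537794-67537823 on the plus strand, 120 to 91 and 75 to 46 bases before the start that follows the window chr10:67537619-67537868, and farther from the starts of the 2 other windows that hold them. The stretch of Egr4 lies at chr6:85513690-85513769 on the minus strand, and runs for 80 bases from 180 bases before its start.
Egr2, outer stretch: ttggccatgTGACGgcaaaagctgccaggc
Egr2, inner stretch: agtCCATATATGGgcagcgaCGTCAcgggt
Egr4: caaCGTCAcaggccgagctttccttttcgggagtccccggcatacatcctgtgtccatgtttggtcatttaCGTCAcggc

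Both genes thus carried these letters at 2 places, and Egr2 had a CArG box between its own 2 places. Searched on both strands over all 32851 promoter windows of the same length, TGACG was found in 17.8%, the CArG box in 1.47% and GCGNGGGCG, the element that Egr proteins bind, in 4.7%. No CArG box was matched in the window of Egr4, and GCGNGGGCG was matched in none of the 6 windows. TGACG stood in 3 of the 5 windows of Egr2 and a CArG box in 4 of them, some of which overlap. These are matches of letters only, and the RNA counts do not show which factors were bound.

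The libraries held 38601039 to 58858458 reads assigned to genes. Levels are given as CPM, the reads of a gene in every 1000000 reads assigned to genes, after scaling between libraries. Markers of cortex and hypothalamus were highest where the labels put them. The cortex list (Tbr1, Cux2, Rorb, Fezf2, Neurod6) summed to 343 to 526 CPM in frontal cortex and to at most 202 CPM elsewhere, and the hypothalamus list (Hcrt, Pmch and 5 others) to 666 to 1820 CPM in hypothalamus and to at most 73.8 CPM elsewhere. The amygdala list (Rspo2, Cyp26b1, Tfap2d) was less distinct, with 19.3 to 65.9 CPM in amygdala and 14.4 to 35.1 CPM in frontal cortex, and of its 3 genes only Cyp26b1 had a higher median in amygdala (38.9 CPM) than in frontal cortex (8.76 CPM). Rspo2 (6.08 and 15.1 CPM) and Tfap2d (0.868 and 1.04 CPM) did not. Markers of neighbouring tissue varied within each region. The striatum list ran from 194 to 2040 CPM in amygdala and 181 to 1170 CPM in frontal cortex, the thalamus list from 21.4 to 151 CPM in hypothalamus, and the choroid plexus list from 8.53 to 1750 CPM in amygdala, 5.5 to 313 CPM in frontal cortex and 7.93 to 197 CPM in hypothalamus. The column headers carry 1 word in all 28 libraries of 30 min and another in all 62 later libraries, and its meaning is not given. A difference of 30 min from later times cannot be told apart from whatever that word stands for, whereas 60 and 120 min share the word. The leading sequencing index followed time in part. In hypothalamus no 120 min library shared its index with a library of another time. In frontal cortex no 30 min library and no 120 min control did. In those comparisons time and index cannot be told apart.

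All 4 genes were highest in frontal cortex, lower in amygdala and lowest in hypothalamus, and the family members differed most in how far they dropped in hypothalamus. In controls Egr1 was at 480 ± 72.8 CPM in frontal cortex (SD, n = 16), at 196 ± 36.3 CPM in amygdala (SD, n = 15) and at 54.6 ± 19.7 CPM in hypothalamus (SD, n = 13). Its ranges were 351 to 617, 133 to 273 and 25.1 to 83.7 CPM, so that no control library of one region overlapped another region. Egr3 was separated in the same way, at 76.9 ± 13.7 CPM (47.4 to 99.9) in frontal cortex, 30.7 ± 5.01 CPM (24.8 to 42.2) in amygdala and 2.47 ± 1.45 CPM (1.46 to 6.98) in hypothalamus. The RNA came from whole dissected tissue, so fewer cells that express a gene and less RNA per cell cannot be told apart.

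Egr2 was the rarest member, at 17.5 ± 7.21 CPM in frontal cortex, 8.26 ± 3.2 CPM in amygdala and 1.33 ± 0.772 CPM in hypothalamus. The hypothalamus value rested on 16 to 192 reads per library. Its ranges overlapped widely between frontal cortex and amygdala and met between amygdala and hypothalamus, with 6.08 to 27.8 CPM in frontal cortex, 3.56 to 14 CPM in amygdala and 0.374 to 3.57 CPM in hypothalamus. Egr4 was at 49 ± 11.6, 24.6 ± 5.9 and 3.04 ± 0.777 CPM in frontal cortex, amygdala and hypothalamus. Only its frontal cortex and amygdala ranges met, since the lowest frontal cortex control had 34.1 CPM and the highest amygdala control 34.6 CPM.

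Set per kilobase of exon, which makes genes comparable, the order within a region was Egr1, Egr4, Egr3 and Egr2. In frontal cortex the level was 107 ± 16.2 CPM per kb for Egr1, 22.8 ± 5.38 for Egr4, 17.4 ± 3.11 for Egr3 and 5.14 ± 2.12 for Egr2 (SD over control libraries). Egr4 and Egr3 had overlapping ranges there, 15.9 to 30.9 and 10.7 to 22.7 CPM per kb, and in amygdala, 7.16 to 16.1 and 5.62 to 9.57 CPM per kb. In hypothalamus Egr1 stood at 12.2 ± 4.4 CPM per kb and Egr4 at 1.41 ± 0.362, and Egr3 (0.561 ± 0.33) and Egr2 (0.392 ± 0.227) were lower. There the ranges of Egr4 (0.865 to 2.0), Egr3 (0.331 to 1.58) and Egr2 (0.11 to 1.05) all overlapped.

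All differences between regions passed the test, although ranges of Egr2 and Egr4 overlapped between frontal cortex and amygdala. Frontal cortex exceeded hypothalamus by a log2 difference of 3.15 for Egr1 (SE 0.0973), 3.62 for Egr2 (SE 0.205), 4.96 for Egr3 (SE 0.169) and 3.98 for Egr4 (SE 0.122). As folds these are 8.88, 12.3, 31.1 and 15.7. Amygdala exceeded hypothalamus by 1.84, 2.51, 3.64 and 2.96 on the log2 scale for Egr1 to Egr4, and frontal cortex exceeded amygdala by 1.31, 1.11, 1.32 and 1.01. Of the 12 adjusted p-values, all below 0.05, the largest was 4.33e-09 for Egr2 between frontal cortex and amygdala. The background is broad, since 39.6%, 36.8% and 31.2% of the 18337 genes tested were called higher in the first region of these 3 comparisons, so that a call by itself sets the family little apart. Markers of neurons and of telencephalic excitatory neurons differ between the regions too. The neuron list (Snap25, Syt1, Rbfox3) summed to 4690 to 6160 CPM in frontal cortex, 2800 to 3890 CPM in amygdala and 1620 to 2310 CPM in hypothalamus, and Slc17a7, the vesicular glutamate transporter of telencephalic excitatory neurons, had medians of 1420, 606 and 3.9 CPM. The part of cell composition in the levels of the Egr genes was not tested.

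**Figure D1:**
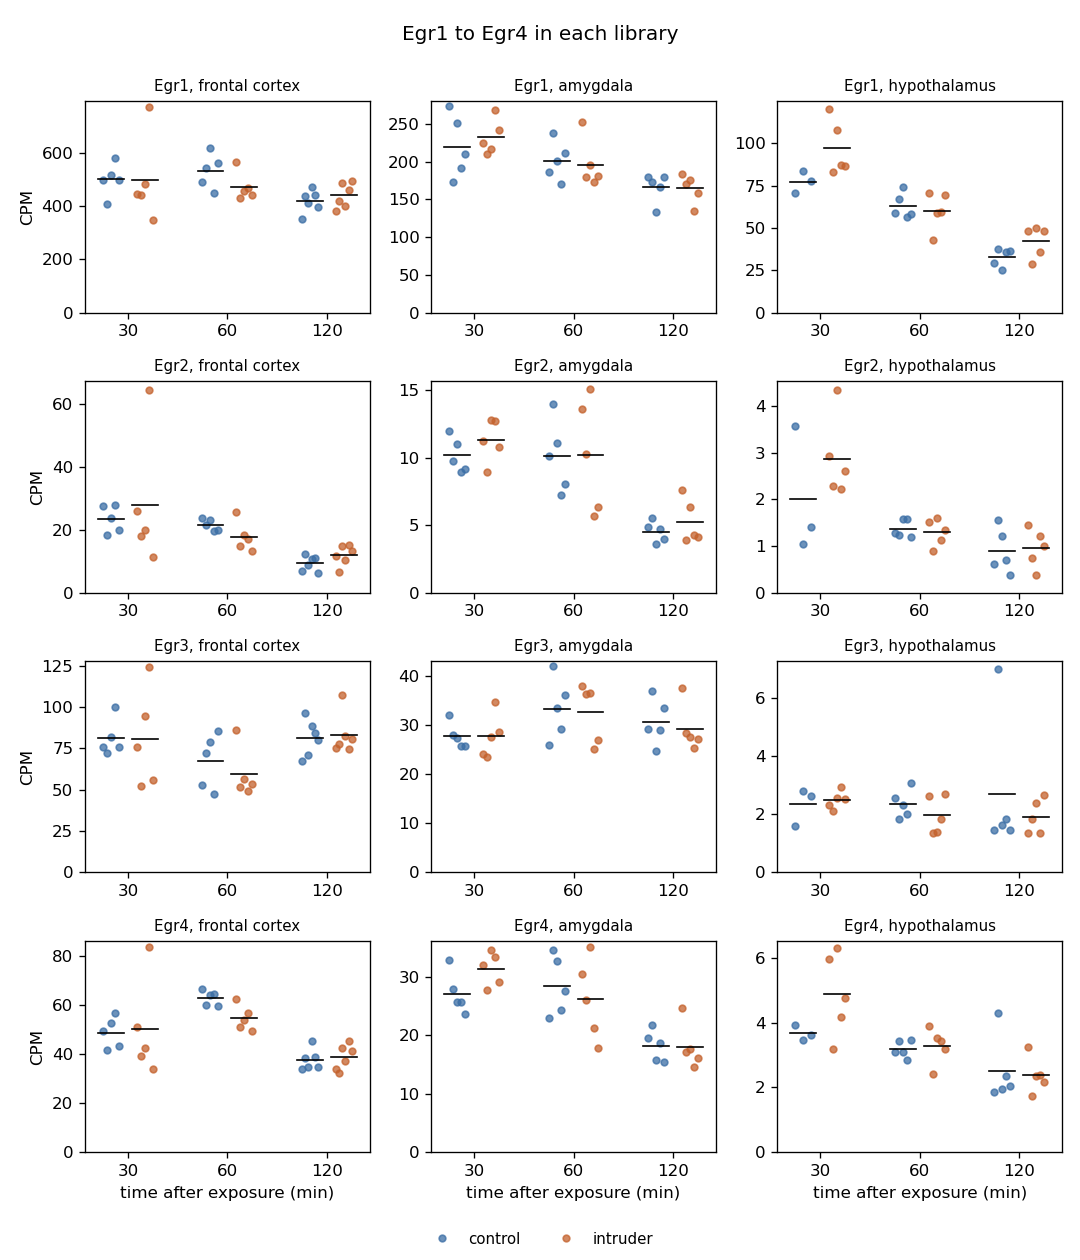
Level of each gene (rows) in each region (columns) in CPM against time after exposure in min. Each point is a library, blue or orange by condition as in the legend, and the black bars give group means. Vertical axes start at 0 and differ between panels. The 2 conditions overlap in every panel, Egr1 in hypothalamus and Egr2 in frontal cortex and amygdala are lowest at 120 min, and single libraries stand apart for Egr2 in frontal cortex at 30 min and Egr3 in hypothalamus at 120 min.

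With time after the exposure, declines of Egr1, Egr2 and Egr4 were called in control animals and none of Egr3. The calls were for Egr1 in hypothalamus, Egr2 in frontal cortex and amygdala, and Egr4 in frontal cortex from 60 to 120 min. A difference of the change between regions was called for Egr1 and not for the other three. Values were compared within a region by edgeR's quasi-likelihood test with Benjamini-Hochberg adjustment over all genes tested, and a gene is called at an adjusted p below 0.05. All controls had met the cage with the paper cup, the handling and the loss of the female, and there were no undisturbed animals. The tests between times in controls compare times after these events. In tests against the earliest time, a change with time cannot be told apart from the word in the column headers. Where the sequencing index followed time, time and index cannot be told apart either.

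Egr1 in hypothalamus gave the clearest decline. The 3 controls of 30 min had 70.3, 83.7 and 77.7 CPM. The 5 controls of 60 min had 58.7, 67, 73.9, 56.2 and 58.2 CPM. The 5 controls of 120 min had 29.2, 37.5, 25.1, 36 and 36.4 CPM. Every library of 120 min lay below every library of 30 and 60 min, while 30 and 60 min overlapped. From 30 to 120 min Egr1 fell by 1.23 on the log2 scale (95% interval -1.58 to -0.89, adjusted p = 0.000341), to 0.425 of its level, and from 60 to 120 min it fell by 0.94 (-1.24 to -0.63, adjusted p = 0.00744). In hypothalamus controls only 0.0792% of the 17676 genes tested were called lower from 30 to 120 min and 0.0396% from 60 to 120 min. Both calls for Egr1 held without each library in turn. No 120 min hypothalamus library shared its sequencing index with an earlier hypothalamus library, so this fall cannot be told apart from the index.

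Egr1 moved less in the other regions. In frontal cortex its control means were 500, 532 and 419 CPM at 30, 60 and 120 min, with SDs of 62.5, 65.4 and 42.2, and the log2 difference of 120 and 30 min was -0.26 (95% interval -0.52 to 0, adjusted p = 0.246). In amygdala the means were 220, 201 and 166 CPM, with SDs of 41.5, 25.6 and 19.3, and the difference was -0.40 (-0.65 to -0.16, adjusted p = 0.247). Neither passed the threshold. From 60 to 120 min the frontal cortex difference was -0.34 (adjusted p = 0.0632), which was called without the 30 min intruder library 4 or 5 or the 120 min control 4 (adjusted p 0.0185 to 0.0427). The change of Egr1 from 30 to 120 min differed between the 3 regions (F test over all 90 libraries, adjusted p = 0.0122), as it did for 1.51% of all genes tested. That call was lost without the 30 min control animal 3 (adjusted p = 0.0631) or 5 (adjusted p = 0.0577), which are among the 3 animals of that group in hypothalamus. The same test gave adjusted p = 0.971, 0.95 and 0.881 for Egr2, Egr3 and Egr4.

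Egr2, a factor best known from myelinating glia outside the brain, declined in frontal cortex and amygdala. In frontal cortex the controls of 30 min had 27.5, 18.3, 23.6, 27.8 and 19.8 CPM. The controls of 60 min had 23.6, 21.3, 23.1, 19.4 and 19.8 CPM. At 120 min the 6 controls ran from 6.08 CPM over a median of 9.7 to 12.1 CPM, below every earlier library. Egr2 fell by 1.34 on the log2 scale from 30 to 120 min (-1.92 to -0.76, adjusted p = 0.00725) and by 1.21 from 60 to 120 min (-1.79 to -0.63, adjusted p = 0.0102). Frontal cortex changed broadly with time, and 2.48% of its 17091 genes were called lower from 30 to 120 min and 7.03% from 60 to 120 min. These frontal cortex calls also held without each library in turn. The 120 min controls had an index that no other frontal cortex library had, so their time and index cannot be told apart.

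In amygdala the controls of 30 min had 12, 9.76, 11, 8.95 and 9.18 CPM of Egr2. At 60 min they had 10.1, 14, 11.1, 7.25 and 8.04 CPM. At 120 min they had 4.82, 5.49, 3.56, 4.72 and 3.98 CPM, again below every earlier library. The fall from 30 to 120 min was 1.17 on the log2 scale (-1.65 to -0.70, adjusted p = 0.027), against a background of 0.0868% of 17277 genes called lower. This call was lost without any 1 of 8 libraries, the 30 min controls 1, 2, 3 and 5 and the 120 min controls 2, 3, 4 and 6 (adjusted p 0.0595 to 0.0965), while the change stayed between -1.25 and -1.10. With the sequencing index as a block it was -0.58 (adjusted p = 0.84). From 60 to 120 min the difference was -1.16 (adjusted p = 0.081, 0.0232% of genes called lower). The same decline was called with 4 of the single libraries left out, the 60 min controls 1 and 5 and the 60 min intruder libraries 3 and 4 (adjusted p 0.0373 to 0.0486).

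No change of Egr2 was called in hypothalamus controls. The 30 min controls had 3.57, 1.04 and 1.4 CPM, those of 60 min 1.27, 1.23, 1.58, 1.57 and 1.2 CPM, and those of 120 min 0.608, 1.55, 1.22, 0.696 and 0.374 CPM. The log2 difference of 120 and 30 min was -1.16 (adjusted p = 0.265). Single libraries moved it in both directions. It was -0.45 without the 30 min control 2, the highest, and -1.44 without the 120 min control 2 (adjusted p = 0.189).

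Egr4, the member most like Egr2, was called in frontal cortex between 60 and 120 min. Its controls had 49.4, 41.5, 52.8, 56.5 and 43.2 CPM at 30 min. They had 66.4, 59.8, 63.9, 64.3 and 59.6 CPM at 60 min. At 120 min they ran from 34.1 over a median of 36.6 to 45.1 CPM. The 60 min libraries were thus above all others of the controls. The fall from 60 to 120 min was 0.74 on the log2 scale (-1.02 to -0.45, adjusted p = 0.00743) and held without each library in turn. The rise from 30 to 60 min, 0.36 (0.06 to 0.66, adjusted p = 0.0565), did not pass the threshold in a comparison in which 35.4% of all genes did. The difference of 120 and 30 min was -0.38 (adjusted p = 0.118), called without the 30 min intruder library 4 (adjusted p = 0.0204). The rise passed without the 30 min control 4, the 30 min intruder library 4 or 5 or the 120 min control 4 (adjusted p 0.00572 to 0.0489).

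In amygdala Egr4 went from 27.1 ± 3.51 CPM at 30 min and 28.4 ± 5.1 CPM at 60 min to 18.2 ± 2.69 CPM at 120 min (SD, n = 5 each). The highest 120 min library had 21.8 CPM and the lowest earlier one 22.9 CPM. The log2 differences from 30 and from 60 min, -0.57 and -0.64, had unadjusted p-values of 0.000978 and 0.000327 but adjusted p = 0.161 and 0.177, so they were not called. In hypothalamus the difference of 120 and 30 min was -0.55 (adjusted p = 0.397).

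No change of Egr3 from 30 to 120 min was called in amygdala or frontal cortex controls. In amygdala its control means were 27.9 ± 2.64, 33.4 ± 6.27 and 30.8 ± 4.72 CPM at 30, 60 and 120 min, and the log2 difference of 120 and 30 min was 0.14 (-0.14 to 0.43). In frontal cortex they were 81.1 ± 11.1, 67.4 ± 16.6 and 81.3 ± 10.8 CPM, and the difference was 0 (-0.37 to 0.36). These intervals leave out a decline as large as the one fitted for Egr2, and the one in frontal cortex includes the -0.26 of Egr1. A difference between the members was not tested as such. Counted against Egr3 reads of the same library, Egr2 had 0.347 to 0.4 reads per Egr3 read in the 30 min amygdala controls and 0.118 to 0.164 at 120 min. In frontal cortex controls the ratio went from 0.254 to 0.363 at 30 min to 0.0762 to 0.131 at 120 min. In neither region did the 2 times overlap. In hypothalamus controls they did, with 0.375 to 2.23 at 30 min and 0.221 to 0.75 at 120 min.

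From 30 to 60 min no member was called in controls of any region, where 35.4% of genes were called in frontal cortex, 0.133% in amygdala and 0.0170% in hypothalamus. Other measures moved with time in frontal cortex. The oligodendrocyte list (Mbp, Mog, Mobp, Cnp) summed to 2000 to 2600 CPM in the controls of 30 min, 3060 to 4730 CPM at 60 min and 2570 to 4080 CPM at 120 min. Reads that matched no annotated feature were 10.99% to 12.7% at 30 min, 8.99% to 9.71% at 60 min and 9.46% to 11.3% at 120 min. The mural list had 201 to 233, 132 to 183 and 165 to 196 CPM at these times, and the blood list (Hbb-bs, Alas2 and others) 75.1 to 108, 120 to 148 and 103 to 154 CPM. Their part in the frontal cortex changes was not tested.

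**Figure D2:**
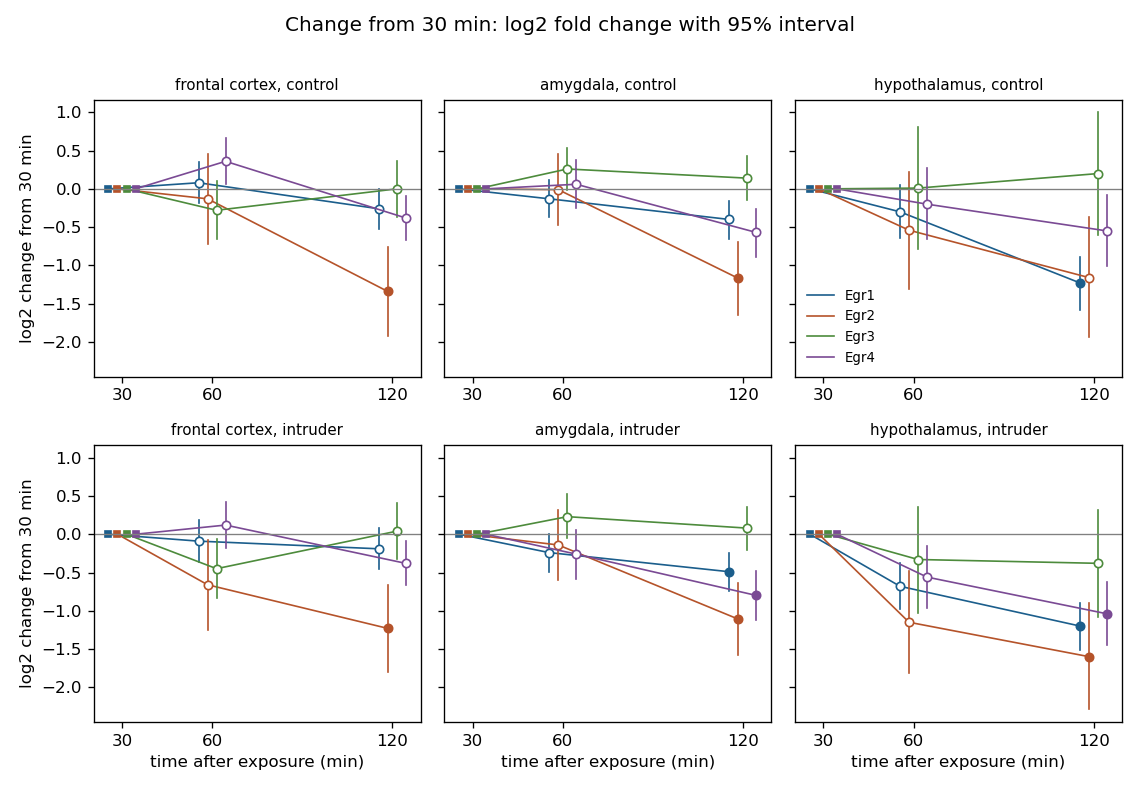
Log2 change from 30 min in each gene against time after exposure in min, for control (top) and intruder-exposed (bottom) animals of each region. Squares are the 30 min reference at 0, circles the fitted change with its 95% interval, and filled circles are called at an adjusted p below 0.05. Egr1 in hypothalamus and Egr2 in frontal cortex and amygdala are called at 120 min in both rows, and Egr3 stays near 0 at 120 min in frontal cortex and amygdala.

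Intruder-exposed animals showed declines too, in Egr1, Egr2 and Egr4. In hypothalamus Egr1 had 120, 82.8, 108, 87.1 and 86.8 CPM at 30 min. It had 70.6, 42.7, 59, 59.4 and 69.5 CPM at 60 min. It had 48, 28.4, 50, 35.7 and 48.2 CPM at 120 min. All 30 min libraries were above all later ones. The fall from 30 to 120 min was 1.20 on the log2 scale (-1.51 to -0.90, adjusted p = 3.89e-05). Egr2 fell by 1.60 (adjusted p = 0.0107), from 2.88 ± 0.867 to 0.954 ± 0.411 CPM, and Egr4 by 1.04 (adjusted p = 0.00547), from 4.89 ± 1.28 to 2.38 ± 0.549 CPM (SD, n = 5 each). In the exposed hypothalamus 0.962% of genes were called lower from 30 to 120 min. As in controls of the region, time and index cannot be told apart here. Vascular markers were lower at 120 min as well. In these libraries the endothelial list (Cldn5, Flt1 and 4 others) summed to 166 to 179 CPM at 30 min and 93.6 to 142 CPM at 120 min, and the mural list (Rgs5, Vtn and 3 others) to 127 to 134 and 75.9 to 93.7 CPM. In controls of the region, where Egr1 fell by 1.23, the endothelial list had 161 to 184 CPM at 30 min and 148 to 171 CPM at 120 min, and the mural list 117 to 141 and 117 to 148 CPM, so these ranges overlapped. The part of vascular cells in the exposed changes was not tested.

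In amygdala of exposed animals the same 3 genes were called from 30 to 120 min, against 6.09% of genes called lower. Egr1 fell by 0.49 (adjusted p = 0.00688), from 232 ± 23.1 to 165 ± 19 CPM, Egr2 by 1.11 (adjusted p = 0.00211), from 11.3 ± 1.59 to 5.22 ± 1.65 CPM, and Egr4 by 0.80 (adjusted p = 0.00133), from 31.3 ± 2.91 to 18 ± 3.88 CPM. The endothelial list went from 194 to 231 CPM at 30 min to 105 to 151 CPM at 120 min in these libraries, and its part was not tested. With the sequencing index as a block none of the 3 was called. The groups of a time partly share an index, so index and time can be separated only in part. In frontal cortex Egr2 was the only member called from 30 to 120 min, where 8.66% of genes were called lower. It fell by 1.23 (adjusted p = 0.00384), but without the 30 min intruder library 4, described further on, by 0.66 (adjusted p = 0.0395). Egr4 there, at -0.38 (adjusted p = 0.0612), was called without the 30 min intruder library 2 or 5 (adjusted p = 0.0325 and 0.0151), whereas without library 4 it shrank to -0.11 (adjusted p = 0.497). In these exposed frontal cortex libraries the oligodendrocyte list had 1580 to 2590 CPM at 30 min and 2650 to 4160 CPM at 120 min, and the mural list 200 to 250 and 161 to 184 CPM, and their part was not tested.

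From 60 to 120 min in frontal cortex of exposed animals Egr4 fell by 0.50 (adjusted p = 0.0129), from 54.7 ± 5.07 to 38.6 ± 5.1 CPM, where 10.0% of genes were called lower. Egr3 rose by 0.49 (adjusted p = 0.0479), from 59.4 ± 15.1 to 83 ± 11.9 CPM, where 12.9% were called higher. Neither was called with the sequencing index as a block, where Egr4 had -0.46 (adjusted p = 0.247) and Egr3 0.53 (adjusted p = 0.287), or in a fit of the 3 exposed groups alone. The rise of Egr3 lay at the threshold and was lost without any 1 of 19 of the 32 libraries (adjusted p 0.0508 to 0.144). These were the 30 min controls 1, 2, 3 and 5, the 30 min intruder library 1, the 60 min control 2, the 60 min intruder libraries 2 to 5, the 120 min controls 3 to 6 and the 120 min intruder libraries 1 to 4 and 6. Without the 30 min intruder library 4 a fall of Egr2, 0.58, was called as well (adjusted p = 0.039). No member was called from 60 to 120 min in exposed amygdala or hypothalamus, with 0.0637% and 0.419% of genes called lower.

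No member was called from 30 to 60 min in exposed animals of any region, with 45.5% of genes called in frontal cortex, 7.41% in amygdala and 0.0792% in hypothalamus. Egr1 in exposed hypothalamus came close, with -0.68 (adjusted p = 0.0743), and passed without the 120 min intruder library 1 or 2 (adjusted p = 0.0477 and 0.025). In exposed frontal cortex Egr2 had -0.66, Egr3 -0.45 and Egr4 0.12. A fall of Egr3 was called without any 1 of 7 libraries, namely the 30 min intruder libraries 2 and 5, the 60 min controls 1, 5 and 6, the 60 min intruder library 1 and the 120 min intruder library 3, and a fall of Egr2 without any 1 of 4, the 30 min intruder libraries 2, 3 and 5 and the 60 min intruder library 1. Without the 30 min intruder library 4 a rise of Egr4 was called, 0.39 (adjusted p = 0.0038), while Egr2 went to -0.08 (adjusted p = 0.791) and Egr3 to -0.24 (adjusted p = 0.293). Whether these changes with time differed between exposed and control animals was tested directly, by asking whether the intruder effect varied with time. It was called for no member, with adjusted p of 0.971 in frontal cortex, 0.688 to 0.978 in amygdala and 0.937 to 0.984 in hypothalamus.

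The main question of the design is whether meeting an intruder changed expression beyond the cage with the paper cup. For the Egr genes no difference between intruder and control animals was called in any region at any time. The fitted log2 differences ran from -0.27 to 0.36 in frontal cortex, from -0.12 to 0.21 in amygdala and from -0.48 to 0.52 in hypothalamus. The 95% intervals reached from -0.87 to 0.92, from -0.45 to 0.69 and from -1.18 to 1.28 in those regions, and the wide intervals of the rarer genes include differences beyond 1 on the log2 scale in hypothalamus. Few genes of any kind were called. The share called was 0% at 30 and 60 min in all 3 regions and at 120 min in frontal cortex. At 120 min it was 0.538% in amygdala, against 0.192% in hypothalamus.

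The lowest unadjusted p among the 4 genes at a single time was that of Egr1 in hypothalamus at 120 min, the only one below 0.05. The controls had 29.2, 37.5, 25.1, 36 and 36.4 CPM. The intruder libraries had 48, 28.4, 50, 35.7 and 48.2 CPM. So 3 of the 5 intruder libraries were above every control and the other two lay among them. The log2 difference was 0.36 (95% interval 0.05 to 0.66, unadjusted p = 0.025, adjusted p = 0.387). It lay between 0.27 and 0.47 without each library in turn, and its adjusted p was never below 0.154. The vascular lists separated the same groups, with 148 to 171 CPM of the endothelial list in controls and 93.6 to 142 CPM in intruder libraries, and 117 to 148 and 75.9 to 93.7 CPM of the mural list, and their part was not tested. At 30 min Egr1 had 120, 82.8, 108, 87.1 and 86.8 CPM in intruder libraries against 70.3, 83.7 and 77.7 CPM in controls, a difference of 0.33 (-0.02 to 0.67, adjusted p = 1). At 60 min it was -0.06 (-0.36 to 0.24). Averaged over the 3 times it was 0.21 (0.02 to 0.39, unadjusted p = 0.0287, adjusted p = 0.999).

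Egr4 in hypothalamus at 30 min had 5.97, 3.2, 6.3, 4.19 and 4.76 CPM in intruder libraries and 3.92, 3.46 and 3.63 CPM in controls. The groups overlapped, and the difference was 0.41 (-0.05 to 0.88, adjusted p = 1). Egr2 there differed by 0.52 (-0.24 to 1.28) and, without the 30 min control 2, by 1.23 (unadjusted p = 0.00485, adjusted p = 0.934). Egr3 there differed by 0.09 (-0.71 to 0.89). The intruder effect did not pass a test of its difference between regions for any member at 30 or 60 min (adjusted p = 1 for each) or at 120 min (adjusted p from 0.766 for Egr1 to 0.977 for Egr4).

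In amygdala and frontal cortex the conditions overlapped for every member. Egr1 in amygdala at 30 min had 273, 173, 251, 192 and 210 CPM in controls and 225, 210, 217, 268 and 242 CPM in intruder libraries, a difference of 0.08 (-0.16 to 0.33). Egr3 in amygdala differed by -0.01, -0.03 and -0.07 at 30, 60 and 120 min, with intervals that stayed within -0.36 and 0.28. In frontal cortex at 60 min all 4 genes were on the lower side in intruder animals, by -0.18, -0.27, -0.18 and -0.20 for Egr1 to Egr4, with adjusted p = 1 for each.

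**Figure D3:**
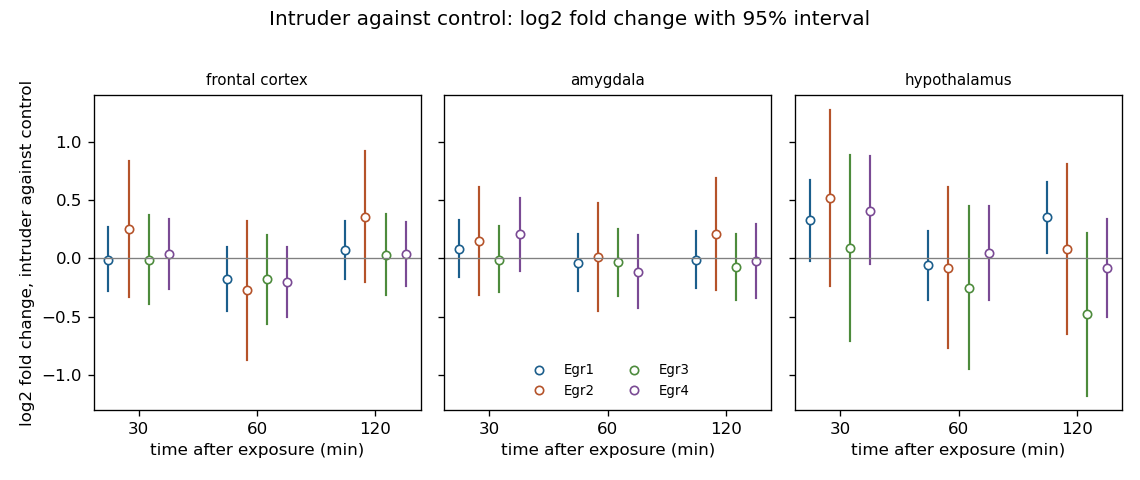
Log2 fold change of intruder against control for each gene at 30, 60 and 120 min in each region, with its 95% interval as a vertical line. Open circles are not called at an adjusted p below 0.05, and no circle is filled. Intervals are widest in hypothalamus, and the interval of Egr1 at 120 min there, 0.05 to 0.66, is the only one that leaves out 0.

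The frontal cortex difference at 30 min depended on 1 library. The 30 min intruder library 4 had 772 CPM of Egr1, 64.3 of Egr2, 124 of Egr3 and 83.5 of Egr4. The other 4 libraries of its group had 349 to 484 CPM of Egr1, 11.2 to 25.8 of Egr2, 52.2 to 94.4 of Egr3 and 34 to 50.8 of Egr4, so it was the highest in all 4 genes. On the log2 scale it stood above its group's mean by 0.68, 1.47, 0.70 and 0.82. Libraries of the same animal from amygdala (0.21, 0.18, 0.34 and 0.09) and hypothalamus (-0.14, -0.32, 0.24 and -0.18) lay nearer their own groups. Its region markers were within its group, with a cortex list of 417 CPM (401 to 526 in the group). With it the intruder effect in frontal cortex at 30 min was -0.01, 0.25, -0.01 and 0.04 for Egr1 to Egr4. Without it, it was -0.22, -0.32, -0.22 and -0.23, with adjusted p of 0.864 to 0.88. The sign for Egr2 and Egr4 thus changed, while no call was made either way.

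In hypothalamus the 120 min control 2 stood apart. It had 6.98 CPM of Egr3, where the other 4 controls had 1.46, 1.62, 1.85 and 1.47 CPM. It had 4.29 CPM of Egr4, where the others had 1.86, 1.95, 2.37 and 2.06 CPM. Egr1, at 37.5 CPM, was close to the next controls at 36.4 and 36 CPM, and Egr2, at 1.55 CPM, was the highest of its group. The same library was high in 5 genes of telencephalic excitatory neurons, chosen after their values were seen. Slc17a7 was at 167 CPM (2.89 to 22.5 in the other 4), Ddn, a protein of dendrites, at 314 CPM (40.9 to 46.4), Itpka at 27.5 CPM (3.25 to 5.48), Slc30a3, a zinc transporter of glutamatergic terminals, at 30.4 CPM (1.83 to 5.79) and Kcnh3 at 30 CPM (2.55 to 4.79). These 5 genes were higher in it than in any other hypothalamus library. Its summed cortex list, 64.8 CPM, was the lowest of its group, in which the highest was 94.9 CPM, and its amygdala list was at 5.15 CPM.

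Without this library several hypothalamus values changed. The difference of 120 and 30 min in controls went from 0.20 to -0.54 for Egr3 (unadjusted p = 0.0443, adjusted p = 0.591) and from -0.55 to -0.83 for Egr4 (adjusted p = 0.101). The intruder effect at 120 min went from -0.48 to 0.26 for Egr3 and from -0.08 to 0.20 for Egr4. Egr1 changed little, from -1.23 to -1.28, and stayed called (adjusted p = 0.000634). No other call of a member in hypothalamus changed. The part of this RNA in its Egr3 and Egr4 levels was not tested.

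**Figure D4:**
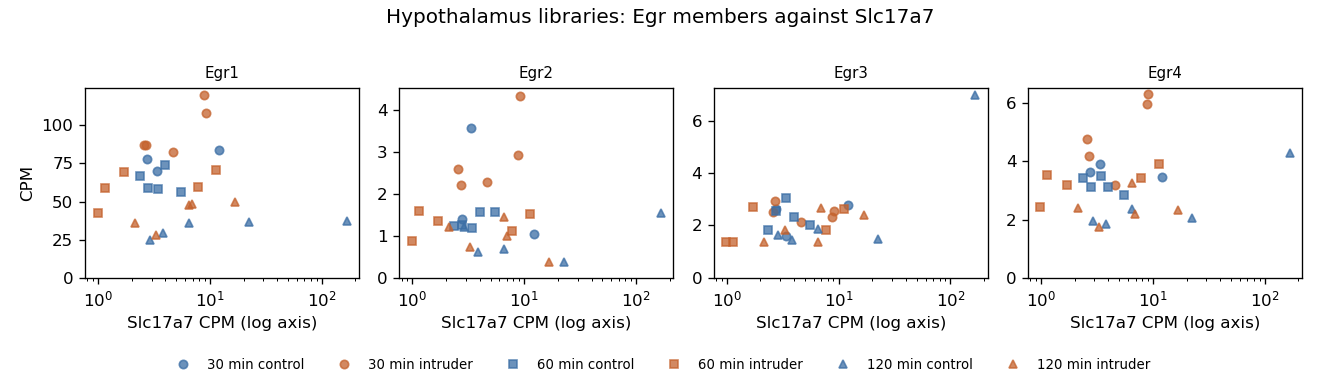
CPM of each Egr gene against CPM of Slc17a7 (log axis) in the 28 hypothalamus libraries. Each point is a library, with the shape for time and the colour for condition. The point far to the right is the 120 min control 2, with 167 CPM of Slc17a7, and it is the highest of all in Egr3.

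Within groups of frontal cortex and amygdala, animals with more of 1 Egr gene tended to have more of the others. Deviations of log2 CPM from the group mean were correlated across the libraries of a region, which share dissection and RNA quality, and r is given as a description. Egr2 and Egr4 had the highest r of the 6 pairs in frontal cortex, 0.92 (32 libraries), and amygdala, 0.87 (30), and r = 0.55 in hypothalamus (28). Without the 2 farthest libraries these became 0.82, 0.85 and 0.45. Egr1 and Egr3 had r = 0.82, 0.70 and 0.39 in the same regions, and Egr3 and Egr4 0.62, 0.78 and 0.49, the last of which became 0.19 without the 2 farthest. Egr1 and Egr2 had r = 0.61 and 0.83 in amygdala and frontal cortex but 0.04 in hypothalamus (-0.1 without the 2 farthest), and Egr2 and Egr3 had r = 0.10 there (-0.12 without the 2 farthest). In hypothalamus the highest r was that of Egr1 and Egr4, 0.63 (0.54 without the 2 farthest). Between regions of the same animal the deviations of a gene were related weakly, with r from 0.05 for Egr2 in frontal cortex and hypothalamus (28 animals) to 0.48 for Egr3 in amygdala and frontal cortex (30 animals).

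Other genes came out close to each member by a fixed rule, the highest r among 16634 genes. By deviations within groups, averaged over the 3 regions, Egr1 was nearest to Nr4a1 (r = 0.804), a nuclear receptor of the immediate-early class, Arc (0.76), a synaptic immediate-early gene, and Fos (0.725). Egr2 was nearest to Junb (0.818), a partner of Fos, to Egr4 (0.777) and to the stress-response gene Gadd45b (0.736), followed by the corepressor Nab2 (0.711). Egr4 was nearest to Junb (0.83), Egr2 (0.777) and Nr4a3 (0.757). Egr3 was nearest to Homer1 (0.779), a scaffold protein of the synapse with an activity-induced short form, Ankrd33b (0.762) and Tacc1 (0.732). None of the 5 nearest genes of Egr3 was an Egr gene or a member of the immediate-early list.

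Over the means of the 18 groups, where region sets most of the variation, the nearest gene was Nr4a1 for Egr1 (r = 0.99), Junb for Egr2 (0.985), Ankrd33b for Egr3 (0.998) and Erf for Egr4 (0.992). Phactr1 (0.998) came next for Egr3, and Srf (0.992), the factor that binds the CArG box, next for Egr4. Egr4 ranked second for Egr2 by both measures, and Egr2 ranked second for Egr4 by deviations and 86 by group means.

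Of 7 kinases and factors upstream of the Egr genes (Srf, Elk1, Elk4, Creb1, Mrtfa, Mrtfb, Mapk3), 0 were called lower in controls from 30 to 120 min in any region and 1, the Srf coactivator Mrtfa, was called higher in frontal cortex, as were 331 of all 17091 genes. The median log2 differences were 0 in frontal cortex, 0.07 in amygdala and 0.04 in hypothalamus, beside 0, 0 and 0.004 over all genes tested. In frontal cortex controls Elk1 (-0.13), Creb1 (-0.40) and Mrtfb (-0.22) were called lower from 30 to 60 min, as were 3099 of all 17091 genes. From 60 to 120 min Elk1 (0.15), Mrtfa (0.25) and Mrtfb (0.22) were called higher, as were 1511 of all genes. In exposed animals Elk4 and Creb1 were called higher from 30 to 120 min in amygdala (0.35 and 0.29), as were 1531 of all 17277 genes, and in hypothalamus (0.26 and 0.18), as were 171 of all 17676 genes. These RNA levels say nothing of activity, which depends on phosphorylation. Of the MAP kinase phosphatases Dusp1, Dusp4, Dusp5 and Dusp6, which switch the kinases off, Dusp1 fell in controls from 30 to 120 min in amygdala, by 0.62 (adjusted p = 0.0216), and in hypothalamus, by 0.49 (adjusted p = 0.0115), where 0.0868% and 0.0792% of all genes were called lower. The other three were not called in any region in that comparison, nor was Dusp1 in frontal cortex.

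Of 13 other immediate-early genes, 5 fell from 30 to 120 min in amygdala controls, 3 in frontal cortex and 4 in hypothalamus, and 0 rose. Over all genes the shares called lower were 0.0868%, 2.48% and 0.0792%. Fos fell in all 3 regions, by 1.74 in hypothalamus (adjusted p = 6.08e-06), 1.28 in amygdala (adjusted p = 9.03e-05) and 0.93 in frontal cortex (adjusted p = 0.0148). Its hypothalamus controls went from 33 to 33.8 CPM at 30 min to 8.35 to 12.2 CPM at 120 min. Junb fell by 1.29, 0.87 and 0.69 in the same order. Nr4a1 fell in amygdala, by 0.91, and hypothalamus, by 1.16, as did Npas4 and Ier2 in amygdala, Ier2 in frontal cortex and Btg2 in hypothalamus. The medians of the list were -0.51 in frontal cortex, -0.68 in amygdala and -0.55 in hypothalamus, beside all-gene medians of 0, 0 and 0.004. In exposed animals 8, 5 and 8 of the 13 fell in amygdala, frontal cortex and hypothalamus, beside 6.09%, 8.66% and 0.962% of all genes. For intruder against control 0 of the 13 was called at any time in any region. The list's medians ran from -0.23, in frontal cortex at 60 min with 11 of the 13 lower, to 0.25, in amygdala at 30 min with 8 higher. All 13 had positive values in hypothalamus at 30 min (median 0.23) and in frontal cortex at 120 min (median 0.15), beside all-gene medians of -0.003 and -0.002. The direction of the list as a set was not tested.

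Of the corepressors Nab1 and Nab2, which respond to Egr proteins and hold them in check, 0 was called from 30 to 120 min in controls. Nab2 fell in frontal cortex from 60 to 120 min, by 0.36 (adjusted p = 0.0151), where 7.03% of all genes were called lower. Among 10 genes reported as Egr targets in neurons (Nab2, Arc, Cdk5r1, Syn1, Syn2, Gabra4, Dlg4, Htr2a, Nr3c1, Ngfr), 1 was called lower in frontal cortex controls from 30 to 120 min, the glucocorticoid receptor gene Nr3c1, by 0.42 (adjusted p = 0.00568), where 2.48% of all genes were called lower. In amygdala and hypothalamus 0 were, beside 0.0868% and 0.0792% of all genes. The list's medians were 0.01, 0.02 and 0 in amygdala, frontal cortex and hypothalamus, beside 0, 0 and 0.004 over all genes.

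Between frontal cortex and hypothalamus most genes of these lists differed in the direction of the Egr genes, in a comparison in which 39.6% of all genes were called higher. Of the immediate-early genes 12 of 13 were called higher in frontal cortex than in hypothalamus, with a median of 1.67 on the log2 scale, and Arc, at 4.74, came nearest to Egr3. The exception was Jun, at -0.18. Of the upstream genes 6 of 7 were called higher, with a median of 0.47, and all 4 phosphatases, with a median of 2.09. Nab2 differed by 1.90 and Nab1 by 0.28. The all-gene median of this comparison was -0.023. Between frontal cortex and amygdala, where 31.2% of all genes were called higher, 10 of 13 immediate-early genes were called higher and Jun lower (-0.85). Of the upstream genes 3 of 7 were called higher there and Mapk3 lower (-0.63), and Nab2 was called (0.28) and Nab1 was not (0.07).

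**Figure D5:**
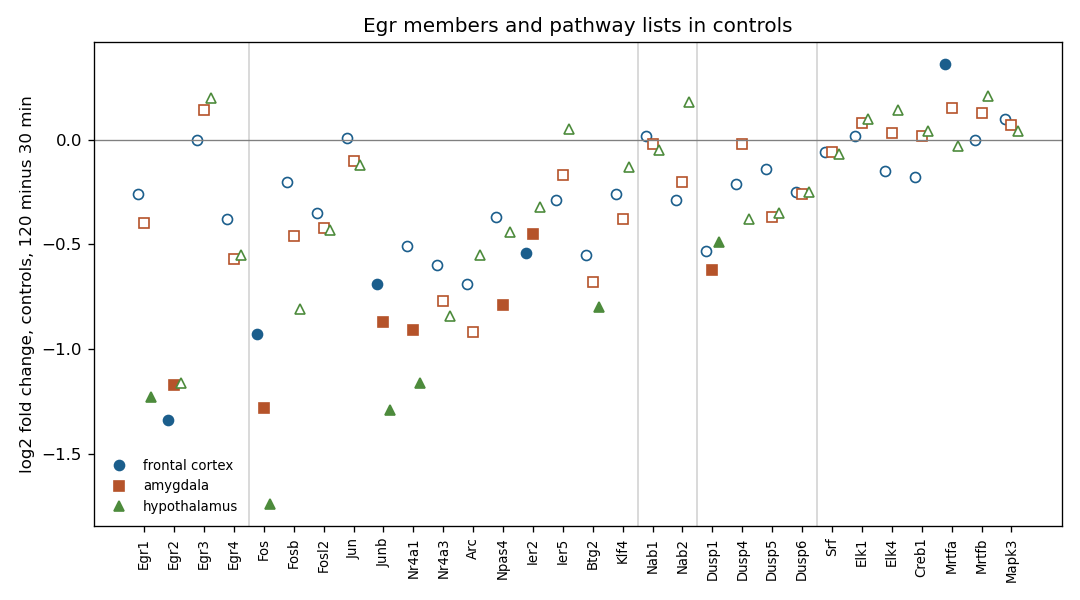
Log2 fold change of 120 against 30 min in control animals for the Egr genes and the genes of the immediate-early, corepressor, phosphatase and upstream lists, separated by grey lines. Circles are frontal cortex, squares amygdala and triangles hypothalamus, and filled symbols are called at an adjusted p below 0.05. Egr2 and Egr1 lie among Fos, Junb and Nr4a1 at the lower end in 1 or more regions, and Egr3 lies between 0 and 0.20.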

How the data were processed

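Poly(A) RNA was sequenced as single-end reads from stranded libraries, per the labels' protocols. The submitters' processing notes name CASAVA 1.8.2, TopHat2 2.0.8, HTSeq 0.6.1, edgeR 3.2.4, R 3.0.0 and the build NCBIM37, with no roles given. The values deposited by the authors are raw counts of reads per gene for 90 libraries, not normalized, and whether counting used strand is not given in the sources used here. Each of 90 columns was matched to its sample, and 0 were left over. The 5 rows without a gene were left out. Between 8.63% and 14.46% of reads lay outside annotated features, 0.63% to 0.76% were ambiguous and 9.79% to 11.5% had no unique alignment. Symbols came from Gencode M21 for 32919 identifiers. No coordinates are given in the authors' build, and the promoter coordinates are of GRCm38.p6 only.

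A separate model per region was fitted in edgeR 4.0.16 (R 4.3.3), with filterByExpr, TMM scaling, 1 coefficient for each of 6 groups and the quasi-likelihood F test. Adjustment was by Benjamini-Hochberg over all genes tested, 17091 in frontal cortex, 17277 in amygdala and 17676 in hypothalamus. Comparisons between regions used all 90 libraries and 18337 genes. Tests are two-sided. The common coefficient of variation between libraries was 10.3%, 14.1% and 11% in the same order. Reads carry no molecular identifiers, so counting precision is not that of independent molecules.

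The labels tie the regions of an animal together. Deviations over genes in the same animal had a median r of 0.04 for amygdala and frontal cortex (30 animals), 0.17 for amygdala and hypothalamus (28) and 0.07 for frontal cortex and hypothalamus (28). The fits were tested on simulated counts for intruder against control at 60 min. Of 100 genes changed 1.5-fold, 58, 76 and 72 were called in amygdala, frontal cortex and hypothalamus. Of 100 changed 2-fold, 82, 79 and 85 were called, so true changes of these sizes can be missed. Of the unchanged genes 7, 8 and 10 were called. Alternatives were other scalings, DESeq2 1.42.0, voom of limma 3.58.1, no filter, blocks for replicate number, animal or library index, smaller fits and leaving out each library. The members and gene lists were chosen with earlier results of these data known, and 3 genes of the lists are not reported here and were left out of their sums and counts. Named genes are the members, called genes of the lists, and the 3 nearest genes by group means and 5 by deviations. The 5 excitatory neuron genes and the libraries described as standing apart were chosen after their values were seen.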

Additional observations from a re-analysis of the deposited data

Results flagged for a closer look

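Each member was examined for a library far from the rest of its group, in the groups of 5 or 6 libraries. These were 68 sets of values over the 4 genes, and 8 such values were found. Chance gives about 1 in 20 sets if values are normal and sets independent. The 4 genes go together within libraries, so the sets are not independent. The 30 min intruder library 4 of frontal cortex had 64.3 CPM of Egr2, and the 120 min control 2 of hypothalamus had 6.98 CPM of Egr3 and 4.29 CPM of Egr4. The 60 min intruder library 1 was high in Egr1 in amygdala (252 CPM) and in frontal cortex (564 CPM) and in Egr3 in frontal cortex (85.9 CPM), and both libraries come from the same animal. In hypothalamus of that animal the 4 genes lay above their group means by 0.25, 0.25, 0.46 and 0.25 on the log2 scale. The other two were Egr3 in the 120 min intruder library 1 of amygdala (37.6 CPM) and in the 120 min intruder library 3 of frontal cortex (107 CPM).

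The change of Egr1 from 30 to 120 min in controls differed between regions by a test of the difference itself (adjusted p = 0.0122), with log2 changes of -1.23 in hypothalamus, -0.40 in amygdala and -0.26 in frontal cortex. It was no longer called without the 30 min control animal 3 (adjusted p = 0.0631) or 5 (adjusted p = 0.0577).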

How the results depend on the processing

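Of 1806 values under alternatives, 1728 stayed the same. For a count of members called this means equal or within 1.5 times, so calls of single genes could change. For a single gene it means the same direction and side of the threshold. For the test of time change between regions it means the same side alone. Of the single-gene differences 0 changed sign, and changes with time in exposed animals entered as counts only. All 300 differences between regions kept direction and call, and all 451 counts of members called for intruder against control stayed at 0. Whether same-numbered control and intruder animals were paired could not be decided. In 0 of 9 sets did every same-numbered pair correlate above 0.1 (r from -0.51 to 0.57). Known pairs would fail this rule too. Amygdala and frontal cortex of the same animal had r above 0.1 in 12 of 30 animals. Amygdala and hypothalamus did in 21 of 28, and frontal cortex and hypothalamus in 8 of 28. With the replicate number as a block, the count of members called went to 1 from 0 in amygdala controls, 120 minus 60 min, to 1 from 0 in frontal cortex controls, 60 minus 30 min, and to 1 from 2 in exposed frontal cortex, 120 minus 60 min. The block changed no other count beyond 1.5 times. With the animal as a block, Egr1's difference of time change between regions had an adjusted p of 0.00102.

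DESeq2 called 2 members in amygdala controls and 1 in exposed amygdala for 120 minus 60 min, 2 in exposed frontal cortex for 120 minus 30 min, and 1 each in exposed hypothalamus for 60 minus 30 and 120 minus 60 min. In frontal cortex controls, 60 minus 30 min, upper quartile scaling, voom, DESeq2 and a fit of the 3 groups alone each called 1. For 120 minus 30 min that smaller fit called 2. In exposed frontal cortex, 120 minus 60 min, 1 was called without a filter, 0 with an index block and 0 in the smaller fit. An index block left 0 called in amygdala for 120 minus 30 min in controls and in exposed animals. It could not be fitted for the intruder effect in frontal cortex at 120 min or on average, for control times and exposed changes from 30 min in frontal cortex, and for changes to 120 min in hypothalamus. In these the index cannot be told apart from the groups compared. DESeq2 was not run for the test of Egr1 between regions.

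Without single libraries the counts ranged from 0 to 1 in amygdala controls for 120 minus 60 and for 120 minus 30 min, 0 to 1 in frontal cortex controls for 60 minus 30 min and 1 to 2 for 120 minus 30 min. In exposed frontal cortex they ranged from 0 to 2 for 60 minus 30, 1 to 3 for 120 minus 60 and 1 to 2 for 120 minus 30 min, and in exposed hypothalamus from 0 to 1 for 60 minus 30 min. Without single control animals the adjusted p of the F test for Egr1's difference of time change between regions ranged from 0.00993 to 0.0631. The causes were not tested. Egr2 in hypothalamus had the fewest reads, 16 to 192 per control library.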
